A study of Mus musculus with 6 samples.

Results

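The genes described here encode the proteins of the cytosolic ribosome and were measured in cultures of mouse mesoderm progenitor cells. They were chosen by name: every listed gene whose symbol begins Rpl or Rps followed by a number, with an optional a, l or x, together with Rpsa and the stalk genes Rplp0, Rplp1 and Rplp2, and without names marked -ps. That gave 79 of 19342 gene names, 1 of which, Rps4l, GENCODE lists as a transcribed processed pseudogene. The naming rule uses no measured value. The levels of 72 could be read securely in all 6 libraries, out of 16562 genes for which this was possible. These 72 are the ribosomal protein genes below.

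Total RNA was sequenced from 6 conditions, each with 1 library, so no condition has a replicate. The conditions were BMP4 with FGF4 for 11 h, BMP4 alone for 11 h, BMP4 with FGF8 for 5 h, BMP4 alone for 5 h, and untreated cells at 96 h and at 0 h in culture. All cultures were of primary progenitors of strain C57BL/6, with no genetic change named in the labels. Per the labels, growth factors (recombinant human BMP4, FGF8 and FGF4) were given after 96 h, which puts the 5 h and 11 h libraries at 101 h and 107 h, and no untreated library of those ages was analysed. Per the labels, cells shared their dishes with a feeder layer of mouse embryonic fibroblasts blocked with mitomycin C, in medium with serum, so feeder RNA can be part of a library.

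A ribosome reads messenger RNA and joins amino acids into protein. Its small subunit binds the message and its large subunit forms the peptide bonds. Each subunit is built on ribosomal RNA from a fixed set of proteins, whose genes lie scattered over the genome and tend to be expressed at similar levels in all cell types. Their messages begin with a run of pyrimidines, the terminal oligopyrimidine (TOP) tract, through which mTOR signalling controls their translation. Growing embryonic cells make many ribosomes, and in the mouse the loss of 1 copy of Rpl38 disturbs the pattern of the axial skeleton.

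Marker genes did not follow the labelled culture times. The summed level of 10 mesoderm progenitor genes, among them T and Tbx6, was 75.3 CPM, counts scaled to a common library size, in the BMP4 with FGF4 11 h library, 234.8 in BMP4 11 h, 412.6 in BMP4 with FGF8 5 h, 413.8 in BMP4 5 h, 48.1 in 96 h untreated and 437.6 in 0 h untreated. The sum of 12 red blood cell genes was 3440.8, 5263.1, 168.3, 31.8, 5600.8 and 24.9 CPM in the same order of libraries. Hba-a1 and Hba-a2, both alpha-globin genes, had the same value in every library, and without Hba-a2 the sums were 2143.3, 3153.3, 117.6, 23.0, 3338.7 and 17.5 CPM. By both lists the BMP4 5 h library lay near the 0 h library. BMP4 with FGF8 5 h did so by the progenitor genes only. All 12 red blood cell genes were higher there than in BMP4 5 h, though their sum was far below that at 96 h. The libraries labelled 11 h had red blood cell genes far above their 0 h level but mostly below their 96 h level. The median ratio to 96 h was 0.73-fold in BMP4 11 h, where 3 of the 12 genes were higher than at 96 h. In BMP4 with FGF4 11 h it was 0.66-fold, and 0 of the 12 were higher. The progenitor genes in BMP4 11 h lay between the 2 untreated libraries. The BMP4 5 h library is therefore set against both the 96 h and the 0 h library below. BMP4 with FGF8 5 h is set against the 96 h and the BMP4 5 h library, each taken as labelled.

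The other markers also differed between libraries. The sum of 11 fibroblast genes was 1939.4 CPM in BMP4 with FGF4 11 h, 1011.2 in BMP4 11 h, 756.6 in BMP4 with FGF8 5 h, 813.1 in BMP4 5 h, 1218.1 in 96 h untreated and 757.3 in 0 h untreated. Fn1, the fibronectin gene, made up much of this sum, and the other 10 genes summed to 1323.2, 549.2, 254.1, 284.2, 892.1 and 196.2 CPM in that order. The 10 endothelial genes summed to 180.7, 69.1, 18.1, 16.9, 139.1 and 18 CPM in that order, and the 3 myeloid genes analysed to no more than 3.67 CPM. In bulk RNA, fewer cells of a type and less RNA per cell cannot be told apart. The part of cell mixture in the results below was not tested.

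All 72 ribosomal protein genes were highest in the BMP4 11 h library. Of the 13675 genes analysed, which are those that reached 1 CPM in any library, 16% were highest there. Of the 72, 60 were lowest in the BMP4 with FGF4 11 h library, 11 in the 96 h untreated library and 1, Rps15a, in the BMP4 with FGF8 5 h library. The corresponding shares of all genes were 33.7%, 19.3% and 11%. With scaling by total counts, 68 were highest in BMP4 11 h, 45 were lowest in BMP4 with FGF4 11 h and 27 in 96 h untreated. The 2 libraries of BMP4 treatment for 11 h thus held the highest level of every ribosomal protein gene and the lowest level of 60, and for those 60 the other 4 libraries lay between them.

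**Figure D1:**
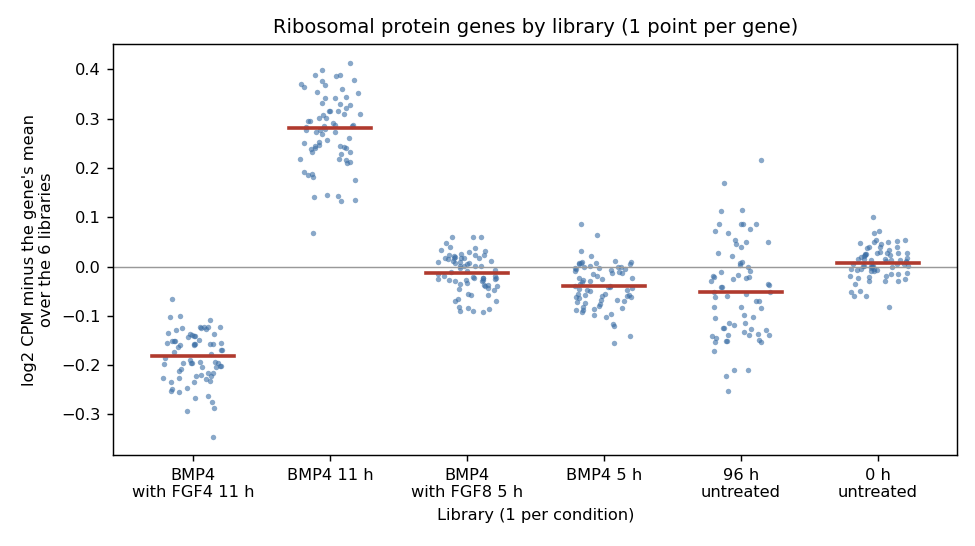
Each point is 1 of the 72 ribosomal protein genes, placed by its log2 CPM minus its own mean over the 6 libraries (vertical axis) in each library (horizontal axis), and the red lines are medians. The medians are 0.28 in BMP4 11 h and -0.18 in BMP4 with FGF4 11 h, against -0.05 to 0.01 in the other 4 libraries.

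From lowest to highest library the genes spanned between 1.17-fold (Rpl22) and 1.66-fold (Rps29), with a median of 1.39-fold, and none of the 72 spanned over 2-fold. Over all genes analysed the median span was lower, 1.28-fold, while 13.9% spanned over 2-fold. The summed level of the 72 genes was 10861.4 CPM in BMP4 with FGF4 11 h, 14797.2 in BMP4 11 h, 12221.5 in BMP4 with FGF8 5 h, 11913.1 in BMP4 5 h, 11949.3 in 96 h untreated and 12403.2 in 0 h untreated. As a share of the counts of all placed genes, they took 1.131% in BMP4 with FGF4 11 h, 1.395% in BMP4 11 h and 1.192% in 96 h untreated. The exact Clopper-Pearson 95% intervals of these shares were 1.1296% to 1.1325%, 1.3937% to 1.3972% and 1.1903% to 1.1930%, and cover counting error only. A count of 3 equals 0.0118 to 0.0180 CPM, depending on the library, far under the lowest level of any of the 72 genes, 26.7 CPM for Rpl38.

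**Figure D2:**
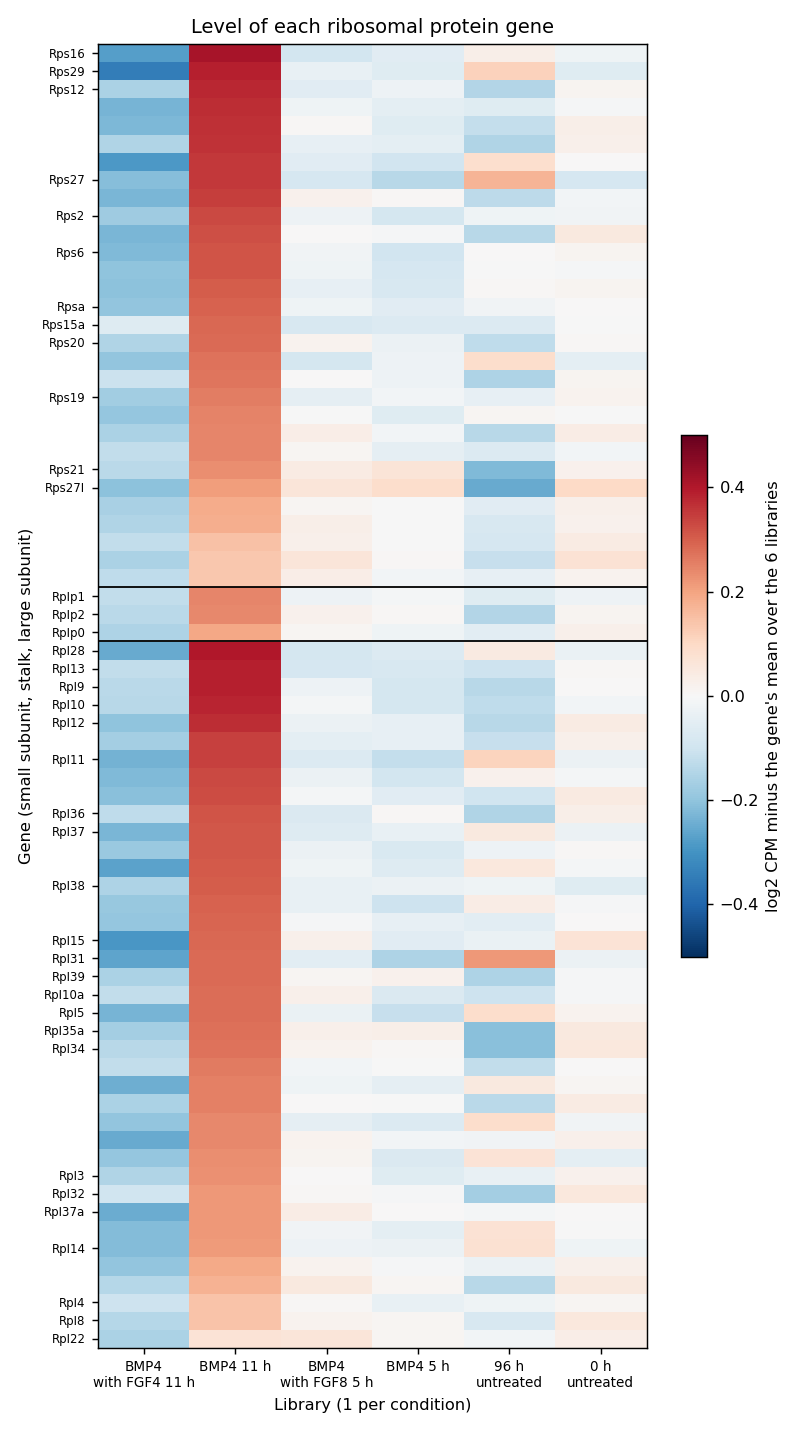
Each row is a ribosomal protein gene (those named in the text are labelled), sorted within the small subunit (top), the stalk (middle) and the large subunit (bottom), and each column is a library. Colour gives log2 CPM minus the gene's own mean over the 6 libraries, red above it and blue below it. The BMP4 11 h column is red in all 72 rows, the BMP4 with FGF4 11 h column is blue in all, and the 96 h untreated column is mixed.

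Treatment with BMP4 for 11 h was set against the untreated 96 h library. All 72 ribosomal protein genes were higher with BMP4 (46.1% of all genes were), by a median of 1.24-fold, or 0.31 on the log2 scale with 0.5 CPM added to both levels. The median over all genes was -0.02. At least 25% higher were 32 of the 72, against 12.6% of all genes, and 0 of the 72 were at least 20% lower (the same step on the log scale), against 7.28% of all genes. With scaling by total counts, 70 of the 72 were higher and 20 were at least 25% higher, against 9.69% of all genes. The large subunit (39 genes, 17 of them past this step) had a median of 0.315, the small subunit (30 genes, 14 past it) 0.316 and the stalk (3 genes, 1 past it) 0.305.

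Rpl9, at the base of the stalk on the large subunit, had 211.8 CPM in BMP4 11 h and 146.9 CPM in 96 h untreated, the highest ratio of the 72 (1.44-fold, counting interval 1.42 to 1.46). Rps12, in the small subunit, had 144.8 CPM in BMP4 11 h and 100.7 CPM in 96 h untreated. Rpl12, a protein of the stalk base, had 231.8 CPM in BMP4 11 h and 162.7 CPM in 96 h untreated. At the other end, Rpl31, which sits near the exit of the peptide tunnel, had 111.0 CPM in BMP4 11 h and 105.9 CPM in 96 h untreated (1.05-fold, interval 1.03 to 1.07). Rpl22, which ribosomes can do without but which developing mouse T cells need, had 157.5 CPM in BMP4 11 h and 149.1 CPM in 96 h untreated, and Rpl14 had 157.6 and 143.4 CPM in these libraries. Rpl14 and Rpl31 each have a pseudogene entry in the table that may share reads with them.

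Against the library labelled BMP4 5 h, the BMP4 11 h library was again higher for all 72 genes (47.6% of all genes were higher), by a median of 0.31 on the log2 scale. At least 25% higher were 35 of the 72, against 13.7% of all genes, and 0 were at least 20% lower, against 5.62%. With scaling by total counts, 71 of the 72 were higher and 11 were past the step upward, against 9.97% of all genes. Rps27, a zinc-binding protein of the small subunit, had 47.2 CPM in BMP4 11 h and 33.6 CPM in BMP4 5 h, the highest ratio (1.40-fold, interval 1.36 to 1.45). Rpl9 and Rpl13 came next, at 1.39-fold each. Rpl22 was lowest, with 157.5 CPM in BMP4 11 h and 151.3 CPM in BMP4 5 h (1.04-fold, interval 1.02 to 1.06). Rps27l (1.09-fold) and Rpl8 (1.09-fold) lay just above it. This comparison and the one with 96 h share the BMP4 11 h library.

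When FGF4 was given along with BMP4 for 11 h, all 72 genes were lower than with BMP4 alone (55.1% of all genes were), by a median log2 ratio of -0.46, or 0.730-fold. The median over all genes was -0.03. At least 20% lower were 64 of the 72, against 9.81% of all genes, and 0 were at least 25% higher, against 9.89%. With scaling by total counts, 35 of the 72 were past the step downward, against 5.4% of all genes, while 19.1% of all genes were past it upward. The counting interval left out 1 for each of the 72, but it does not cover differences between cultures. This comparison also uses the BMP4 11 h library, so its direction is not independent of the 2 above.

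Rps29, a small zinc-binding protein of the small subunit, showed the widest range (its gene lies at chr12:69157722-69159186, minus strand, GRCm38, as annotated by GENCODE M21). It had 38.0 CPM in BMP4 with FGF4 11 h, 63.2 in BMP4 11 h, 47.1 in BMP4 with FGF8 5 h, 46.4 in BMP4 5 h, 52.3 in 96 h untreated and 46.3 in 0 h untreated. The FGF4 library was 0.605-fold the BMP4 11 h library (interval 0.584 to 0.620). Rps16, also of the small subunit, had 102.2 CPM in BMP4 with FGF4 11 h, 164.6 in BMP4 11 h, 115.9 in BMP4 with FGF8 5 h, 118.9 in BMP4 5 h, 126.0 in 96 h untreated and 121.8 in 0 h untreated. Rpl28, of the large subunit, had 76.2 CPM in BMP4 with FGF4 11 h, 119.7 in BMP4 11 h, 85.3 in BMP4 with FGF8 5 h, 86.6 in BMP4 5 h, 93.7 in 96 h untreated and 88.6 in 0 h untreated. All 3 genes had the same highest and lowest library, and in each the 96 h library came second.

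Rpl22 and Rpl4 had the narrowest ranges. Rpl22 had 134.8 CPM in BMP4 with FGF4 11 h, 157.5 in BMP4 11 h, 156.6 in BMP4 with FGF8 5 h, 151.3 in BMP4 5 h, 149.1 in 96 h untreated and 153.8 in 0 h untreated. Rpl4, whose protein lines the peptide exit tunnel, had 437.6 CPM in BMP4 with FGF4 11 h, 518.7 in BMP4 11 h, 471.3 in BMP4 with FGF8 5 h, 458.3 in BMP4 5 h, 463.0 in 96 h untreated and 473.4 in 0 h untreated. Both kept the same highest and lowest library as the widest ones, and for Rpl22 the top 2 libraries were nearly level.

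The bases around the annotated start sites of the genes with wide and narrow ranges, and of Rpl38, are printed because genes whose levels move together are often compared at their promoters. They are 50 bases each on the gene's strand, 25 before and 25 from the start on, from RefSeq on build GRCm38.p6, with runs of at least 8 C or T in capitals. The first 2 are wide-range genes (Rps29 has no entry), the next 2 narrow-range genes.
Rps16 (chr7:28350664-28350713, plus strand): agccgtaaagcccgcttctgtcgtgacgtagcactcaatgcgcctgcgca
Rpl28 (chr7:4792940-4792989, plus strand): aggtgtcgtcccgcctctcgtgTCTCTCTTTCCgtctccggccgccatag
Rpl4 (chr9:64173362-64173411, plus strand): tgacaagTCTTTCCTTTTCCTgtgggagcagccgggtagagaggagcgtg
Rpl22 (chr4:152325701-152325750, plus strand): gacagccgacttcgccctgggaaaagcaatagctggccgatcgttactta
Rpl38 (chr11:114668555-114668604, plus strand): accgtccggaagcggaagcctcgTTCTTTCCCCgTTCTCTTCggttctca
Among the 5 genes of widest range, 4 had an entry and 1 of those held such a run, and among the 5 of narrowest range 3 had an entry and 1 held a run.

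Of the 72 genes, 54 matched a promoter entry, taking the first listed start of each symbol. A run of at least 8 C or T on the gene's strand within 25 bases of the start was found in 27 of the 54 (50.0%), against 19.4% of 27018 promoters. The letters CCGGAAG, a core to which ETS-family factors can bind, occurred on either strand within the 300 bases around the start (250 before, 50 after) in 23 of the 54, against 9.1% of all promoters. TATAAA occurred in 5 of the 54 (14.2% of all promoters), CACGTG in 5 (7.2%) and AAGATGGC in 4 (2.9%). Several annotated starts lie some bases from the pyrimidine tract, so a run can fall outside the window. These letters are a description and say nothing of which factor was bound in these cells.

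Over the other comparisons the medians moved little, though the genes often leaned in a shared direction. BMP4 with FGF4 for 11 h against 96 h untreated gave a median of -0.11 (all genes -0.03). Of the 72, 60 were lower by any amount (45 with scaling by total counts), and 51 lay below the median of all genes. At least 20% lower were 5 of 72, against 6.16% of all genes, and 0 were at least 25% higher, against 13.3%. By total counts 2 were past the step downward, against 3.31% of all genes. The 5 are a share close to the background. Rpl31 had 76.0 CPM in BMP4 with FGF4 11 h and 105.9 in 96 h untreated, Rps29 had 38.0 and 52.3 CPM, and Rps27 had 32.0 and 41.6 CPM in these libraries, the 3 lowest ratios. At the upper end Rps21 (1.06-fold), Rpl32 (1.05-fold) and Rpl34 (1.05-fold) were little above 1.

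BMP4 for 5 h against 96 h untreated gave a median of 0.02 (all genes -0.005). At least 25% higher was 1 of 72, Rps27l (11.3% of all genes), and at least 20% lower was 1, Rpl31 (11.9% of all genes). BMP4 with FGF8 for 5 h against 96 h untreated gave a median of 0.05, with 0 of 72 past the step upward (11.8% of all genes) and 0 downward (11.9%). Rps27l, Rps21 and Rpl35a had the highest ratios and Rpl31, Rps27 and Rpl11 the lowest in both of these comparisons, which share the 96 h library.

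The libraries labelled 5 h were close to each other and to the 0 h library. BMP4 with FGF8 against BMP4 alone at 5 h gave a median of 0.03 (all genes 0.01), with log2 ratios between -0.08 (Rpl36) and 0.10 (Rpl31). No gene of the 72 passed the step, against 1.47% of all genes upward and 0.892% downward. BMP4 5 h against 0 h untreated gave a median of -0.05 with ratios between -0.13 (Rpl5) and 0.04 (Rps21), and 0 of 72 passed it in either direction (2.69% of all genes upward, 0.951% downward). Lower than at 0 h by any amount were 65 of the 72, and 61 lay below the median of all genes. The spread (SD) of log2 ratios over the 72 genes was 0.037 and 0.038 in these comparisons and between 0.104 and 0.134 in the other 7.

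Culture to 96 h without growth factor gave a median of -0.06 over 0 h untreated (all genes -0.002). By any amount 51 of the 72 were lower, and 50 lay below the median of all genes. At least 20% lower was 1 of 72 (11.1% of all genes) and 0 were at least 25% higher (13.5%). The 1 gene was Rps27l, a close relative of Rps27 that p53 activates in mouse and human cells, with 36.3 CPM in 96 h untreated and 46.4 in 0 h untreated (0.785-fold, interval 0.760 to 0.805). Rps27 itself was the highest of the 72 in this comparison, with 41.6 CPM in 96 h untreated and 35.0 in 0 h untreated. Rpl31 (105.9 and 89.2 CPM) and Rps29 (52.3 and 46.3 CPM) were also above 1, and Rpl34 (50.5 and 60.5 CPM) and Rpl35a (57.9 and 69.2 CPM) below, each given for 96 h first and 0 h after it. Rps27 shared its counts almost exactly with the entry Rps27rt in all 6 libraries (within 10 counts), as Rpl34 did with Rpl34-ps1, so the reads of such copies cannot be told apart.

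**Figure D3:**
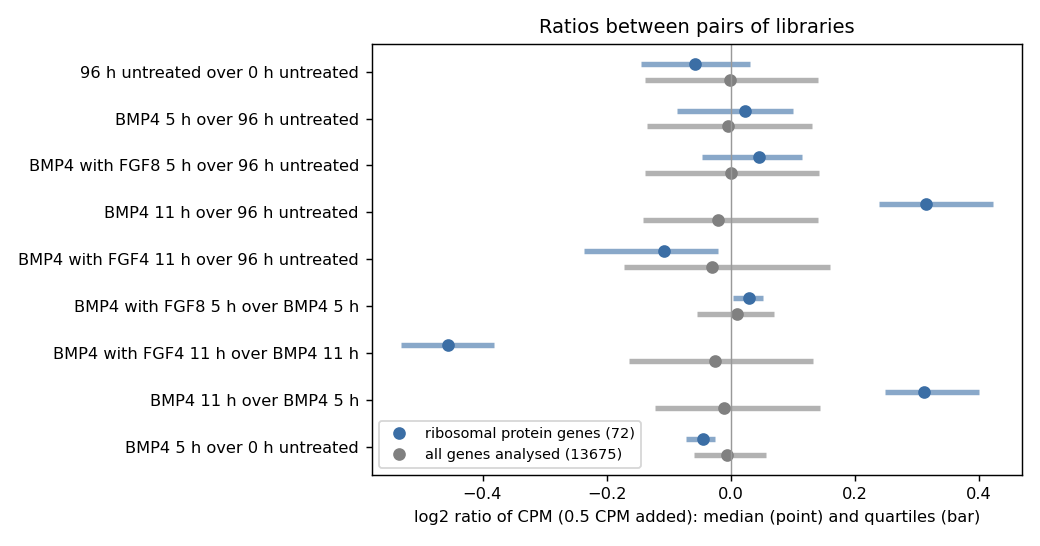
Rows are the 9 comparisons and the horizontal axis is the log2 ratio of CPM with 0.5 CPM added. Points are medians and bars quartiles, blue for the 72 ribosomal protein genes and grey for all 13675 genes. The blue bars lie apart from the grey in the 3 comparisons that include the BMP4 11 h library and overlap them in the other 6.

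The main model with a measure of spread between libraries took both 11 h libraries against both 5 h libraries. In it the library that also had FGF stood in as the second of its time. By edgeR's quasi-likelihood test with Benjamini-Hochberg adjustment over 13675 genes, 0 of the 72 were called higher (2.34% of all genes were) and 0 lower (0.307%). The smallest adjusted p among the 72 was 0.4, for Rps15a, and 0 had an unadjusted p under 0.05. DESeq2 also called 0 of the 72 (9.9% of all genes higher, 4.72% lower). With a term for added FGF, edgeR's quasi-likelihood test called 0 as well (5.24% of all genes higher, 1.95% lower). The smallest adjusted p among the 72 was then 0.531. In the main model the median log2 ratio was 0.09, since the 2 libraries of 11 h lay on opposite sides of the 5 h libraries. Without the BMP4 with FGF4 11 h library, 62 of the 72 were called higher (median 0.30), against 15.4% of all genes. Without the BMP4 11 h library 27 were called lower (median -0.16), against 24.3% of all genes, and 0 higher, against 21.1%. In both refits the lone 11 h library is assumed to vary like the 5 h libraries, whose spread was small.

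Several of the 72 have a known part outside peptide synthesis or in inherited disease. Rpl5 and Rpl11, which together with 5S ribosomal RNA bind and block Mdm2, the ubiquitin ligase of p53, were both highest in BMP4 11 h and lowest in BMP4 with FGF4 11 h. Rpl5 had 344.3 CPM in BMP4 with FGF4 11 h, 490.3 in BMP4 11 h, 395.1 in BMP4 with FGF8 5 h, 373.2 in BMP4 5 h, 429.5 in 96 h untreated and 409.6 in 0 h untreated. Rpl11 had 110.9 CPM in BMP4 with FGF4 11 h, 165.3 in BMP4 11 h, 124.4 in BMP4 with FGF8 5 h, 120.0 in BMP4 5 h, 141.0 in 96 h untreated and 127.9 in 0 h untreated. In both genes the 96 h library was second highest.

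Rps19, the gene most often mutated in the human anaemia named after Diamond and Blackfan, had 95.3 CPM in BMP4 with FGF4 11 h, 128.4 in BMP4 11 h, 104.2 in BMP4 with FGF8 5 h, 106.6 in BMP4 5 h, 104.4 in 96 h untreated and 108.7 in 0 h untreated. Rps6, the small-subunit protein that S6 kinase phosphorylates, had 316.4 CPM in BMP4 with FGF4 11 h, 458.5 in BMP4 11 h, 363.6 in BMP4 with FGF8 5 h, 344.6 in BMP4 5 h, 369.1 in 96 h untreated and 371.9 in 0 h untreated. Apart from the BMP4 11 h and BMP4 with FGF4 libraries, their levels lay within a narrow band. Rpl38, the gene of the mouse skeletal mutant Tail-short, had 26.7 CPM in BMP4 with FGF4 11 h, 36.6 in BMP4 11 h, 29.0 in BMP4 with FGF8 5 h, 29.1 in BMP4 5 h, 29.2 in 96 h untreated and 28.5 in 0 h untreated. Its 4 libraries outside the 11 h treatments were nearly level.

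Rpl10a, a large-subunit protein, had 246.5 CPM in BMP4 with FGF4 11 h, 325.6 in BMP4 11 h, 272.8 in BMP4 with FGF8 5 h, 254.8 in BMP4 5 h, 249.8 in 96 h untreated and 267.2 in 0 h untreated. Rpl10, an X-linked gene whose protein joins the large subunit late, had 243.3 CPM in BMP4 with FGF4 11 h, 348.7 in BMP4 11 h, 266.6 in BMP4 with FGF8 5 h, 252.1 in BMP4 5 h, 245.5 in 96 h untreated and 265.3 in 0 h untreated. Rpl3, which reaches into the peptide-bond-forming centre, was 0.77-fold as high with FGF4 added as with BMP4 11 h alone (321.6 and 418.1 CPM). Rpl39, in the exit tunnel, had 64.3 CPM in BMP4 with FGF4 11 h and 87.4 CPM in BMP4 11 h. Rpsa, the small-subunit protein also known as the laminin receptor, had 337.8 CPM in BMP4 with FGF4 11 h and 474.7 CPM in BMP4 11 h. In these genes too, BMP4 11 h was the highest of the 6 libraries.

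The stalk proteins recruit elongation factors to the large subunit. Rplp0 had 402.2 CPM in BMP4 with FGF4 11 h, 511.7 in BMP4 11 h, 451.5 in BMP4 with FGF8 5 h, 441.9 in BMP4 5 h, 432.5 in 96 h untreated and 455.4 in 0 h untreated. With FGF4 added, the 3 stalk genes had log2 ratios between -0.38 and -0.35 to BMP4 11 h alone, and all 3 were at least 20% lower. In the large subunit 34 of 39 genes were that much lower, with a median of -0.46, and in the small subunit 27 of 30, with a median of -0.48. Over all genes the share that much lower was 9.81%.

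Per kilobase of annotated transcript, Rps2 had the highest mean level over the 6 libraries, 617.2 CPM per kb, then Rpl15 (444.6), Rps6 (422.2), Rpl10a (369.6) and Rpl10 (338.2). The lowest were Rps15a (21.5 CPM per kb), Rps20 (32.7), Rpl37 (79.4), Rpl37a (81.2) and Rpl38 (82.1). For Rps15a and Rps20 the annotated transcripts are 5130 and 3706 bases long, against a median of 768 bases over the 72 genes, so their place rests on the annotation chosen. Rps2, of the small subunit, had 541.2 CPM in BMP4 with FGF4 11 h, 770.1 in BMP4 11 h, 600.8 in BMP4 with FGF8 5 h, 576.4 in BMP4 5 h, 603.6 in 96 h untreated and 604.1 in 0 h untreated.

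Some features shared by the genes were looked at as possible companions of the difference. Their transcripts are short, with a central 80% between 480 and 1357 bases. The 1685 other genes of such a length had a median log2 ratio of 0.02 for BMP4 11 h over 96 h and -0.15 for BMP4 with FGF4 over BMP4 11 h, against 0.31 and -0.46 for the 72 genes. The 1934 other genes with a mean level like theirs (between 59.1 and 350.4 CPM) had medians of 0.004 and -0.083. Among those of like length, 17.9% were at least 20% lower with FGF4 added, against 9.81% of all genes. The 27 genes with a small nucleolar RNA gene inside them had medians of 0.32 for BMP4 11 h over 96 h and -0.49 with FGF4 added, and the 45 without had 0.31 and -0.44. Per the table's names, the summed level of 355 microRNA entries was 187456.4 CPM in BMP4 with FGF4 11 h, 208824.5 in BMP4 11 h, 194016.3 in BMP4 with FGF8 5 h, 193818.7 in BMP4 5 h, 195611.1 in 96 h untreated and 195893.1 in 0 h untreated. These entries, also highest in BMP4 11 h and lowest with FGF4 added, are large parts of each library, and the part of library composition in the result was not tested.

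Genes that work beside the ribosomal proteins were described from lists. Past the same steps in BMP4 11 h over 96 h untreated were 12.6% of all genes upward and 7.28% downward. With FGF4 added to BMP4 for 11 h, 9.89% were past the step upward and 9.81% downward. Of 8 other ribosome-linked genes whose names lie outside the rule, 2 were past the 25% step upward in BMP4 11 h over 96 h untreated and 0 past the 20% step downward, with a median of 0.23. One was Fau, which encodes a small-subunit protein fused to a ubiquitin-like one, with 101.6 CPM in BMP4 11 h and 76.6 CPM in 96 h untreated. With FGF4 added, 5 of the 8 were at least 20% lower than with BMP4 11 h alone and 0 past the step upward, with a median of -0.38. Fau had 70.1 CPM with FGF4 added.

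Of 11 elongation factor genes, 0 passed either step in BMP4 11 h over 96 h (median 0.11). Of all genes, 12.6% passed it upward and 7.28% downward. With FGF4 added, 2 of the 11 were at least 20% lower (median -0.25), against 9.81% of all genes. Eef1a1, which brings aminoacyl-tRNA to the ribosome, had 1479.4 CPM in BMP4 with FGF4 11 h, 1995.8 CPM in BMP4 11 h and 1718.6 CPM in 96 h untreated. Among 21 other genes with TOP messages, 1 was at least 25% higher in BMP4 11 h over 96 h (median 0.16). With FGF4 added, 4 of the 21 were at least 20% lower (median -0.16), again against 9.81% of all genes. Tpt1, a growth-linked protein, had 298.1 CPM in BMP4 with FGF4 11 h and 435.6 in BMP4 11 h, while Vim, the intermediate filament vimentin of fibroblasts and mesenchyme, had 191.9 and 175.3 CPM in these libraries.

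Genes of ribosome assembly and of the mitochondrial ribosome had medians near that of all genes in BMP4 11 h. Of 45 assembly genes, 0 passed the step in either direction in BMP4 11 h over 96 h (median -0.06). Of all genes, 12.6% passed it upward and 7.28% downward. With FGF4 added, 3 of the 45 passed the step downward and 0 upward (median -0.13), against 9.81% and 9.89% of all genes. Fbl, the fibrillarin that methylates ribosomal RNA, had the lowest of these ratios with FGF4 added (-0.46). Of 77 mitochondrial ribosomal protein genes, 2 passed the step upward and 0 downward in BMP4 11 h over 96 h (median -0.05). With FGF4 added, 7 of the 77 passed the step downward and 0 upward (median -0.18). In neither list did the share past the step downward with FGF4 added exceed the 9.81% of all genes. By any amount, though, only 3 of the 77 and 8 of the 45 were higher with FGF4 added, while 55.1% of all genes were lower. In BMP4 with FGF4 11 h over 96 h, 16 of the 77 passed the step downward (median -0.23), as did 5 of the 45 (median -0.16). Of all genes, 6.16% did. Mrps6 (0.61) and Mrpl23 (0.34) were the 2 that passed the step upward in BMP4 11 h over 96 h.

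Among 22 genes that regulate ribosome production or respond to its failure, 2 passed the step upward in BMP4 11 h over 96 h (median 0.02). Downward 0 passed it, and of all genes 12.6% passed it upward and 7.28% downward. With FGF4 added, 1 passed the step upward and 2 downward relative to BMP4 11 h (median -0.04), against 9.89% and 9.81% of all genes. Cdkn1a, the cell cycle inhibitor p21 and a p53 target, had 20.2 CPM in BMP4 with FGF4 11 h, 26.6 in BMP4 11 h, 9.89 in BMP4 with FGF8 5 h, 11.9 in BMP4 5 h, 5.08 in 96 h untreated and 7.31 in 0 h untreated. Mdm2 had 50.8 CPM in BMP4 with FGF4 11 h, 52.4 in BMP4 11 h, 38.2 in BMP4 with FGF8 5 h, 39.2 in BMP4 5 h, 35.3 in 96 h untreated and 37.4 in 0 h untreated. Both were high in both 11 h libraries, unlike the ribosomal protein genes. Myc, an activator of ribosomal protein genes, had 48.2 CPM in BMP4 with FGF4 11 h, 52.4 in BMP4 11 h, 30.6 in BMP4 with FGF8 5 h, 30.4 in BMP4 5 h, 48.4 in 96 h untreated and 31.8 in 0 h untreated. Its relative Mycn had 52.9 CPM in BMP4 with FGF4 11 h, 65.7 in BMP4 11 h, 91.4 in BMP4 with FGF8 5 h, 90.5 in BMP4 5 h, 60.5 in 96 h untreated and 98.1 in 0 h untreated. Myc was lowest and Mycn highest in the 5 h and 0 h libraries.

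**Figure D4:**
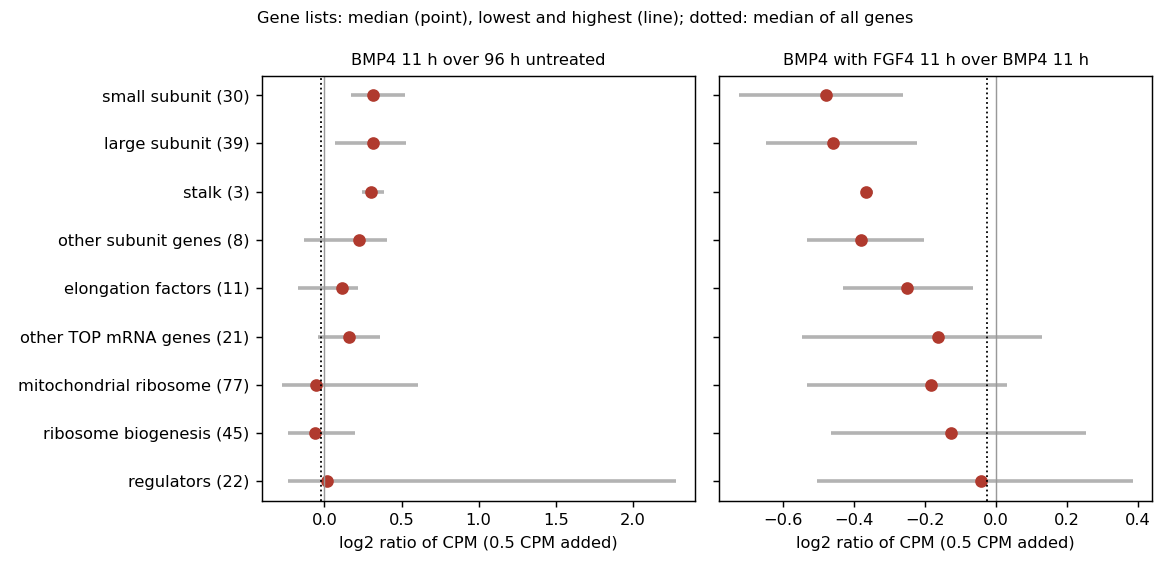
For each gene list (number of genes analysed in brackets), the point is the median and the line the lowest to highest log2 ratio of CPM, for BMP4 11 h over 96 h untreated (left) and BMP4 with FGF4 11 h over BMP4 11 h (right), with the median of all genes dotted. The small subunit, large subunit and stalk have medians of 0.305 to 0.316 on the left, while assembly genes (-0.06) and mitochondrial ribosome genes (-0.05) lie near the dotted line.

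The remaining 7 of the 79 genes could not be read securely in every growth factor library. Rpl23a and Rpl24, next to each other in the table, had 17308 and 30562 counts in the BMP4 5 h library, which looks exchanged against the 32163 and 17642 counts of the 0 h library. Rps4l and Rps4x lie beside a run of 14 extra values in the BMP4 with FGF4 column. Rpl3l, the striated muscle relative of Rpl3, had 19 and 20 counts in 96 h and 0 h untreated and is not read further. Rpl10l and Rpl39l, relatives of Rpl10 and Rpl39, were not analysed here.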

How the data were processed

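The deposited table holds raw counts per gene made by the authors. Per the submitters' processing notes, cutadapt, STAR 2.4.0e, HTSeq and the build mm10 were used, with roles not stated. Per the labels' protocols, a stranded total RNA kit was used. The sources used here give no counting rules. Between 65.4% and 70.9% of values from 1 to 20 are even, and counting intervals assume that each count is independent.

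The 2 untreated columns have 19342 values, as many as there are names, and the growth factor columns are longer, with 19826 values for BMP4 with FGF4, 19686 for BMP4 11 h, 19437 for BMP4 with FGF8 and 19415 for BMP4 5 h. Read row by row, their log2 counts correlated with the 96 h column at r between 0.048 and 0.136 across genes. Each was therefore matched to the names, sorted without regard to case, by an order-preserving alignment with affine gaps (opening 9, extension 2), in which a value cost nothing while it lay between those of both untreated columns. A gene was kept if the next best row was worse by 5 units or more, no row within 3 positions looked exchanged, and columns of the same time paired the same rows. The gap costs were set after seeing the alignment. After placement r was between 0.967 and 0.986, which is no independent check, since like levels were sought. Genes changed far beyond both untreated libraries are placed less often. Kept genes hold 92.9% to 93.0% of the counts, and total counts were 179196459 to 272743104 per library.

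Counts were scaled to CPM with TMM effective library sizes (edgeR 4.0.16, R 4.3.3), and log2 ratios were taken with 0.5 CPM added. Fold intervals are exact (Clopper-Pearson, 95%) and cover counting error only. With 1 library per condition, ratios carry no p-value. The 11 h against 5 h test used edgeR's quasi-likelihood fit, with DESeq2 1.42.0 as an alternative. The steps were tested on simulated data. Genes were named by fixed members, highest and lowest levels, ratios and ranges. The genes, lists and comparisons were chosen with earlier results of these data known. Positions and lengths are from GENCODE M21 (GRCm38), promoter sequences from RefSeq. Values of some single genes are not reported here.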

Additional observations from a re-analysis of the deposited data

How the results depend on the processing

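Scaling by total counts in place of TMM shifted the median of all genes by 0.137 for BMP4 with FGF4 over BMP4 11 h, by -0.097 for BMP4 11 h over BMP4 5 h and by less elsewhere. Under it the ribosomal protein gene medians were 0.232 (BMP4 11 h over 96 h), 0.209 (BMP4 11 h over BMP4 5 h), -0.312 (BMP4 with FGF4 over BMP4 11 h) and -0.046 (BMP4 with FGF4 over 96 h). Relative to all genes these were 0.33, 0.32, -0.42 and -0.07, against 0.34, 0.32, -0.43 and -0.08 with TMM. Genes past the step of 25% up or 20% down then numbered 20 higher, 11 higher, 35 lower and 2 lower in these comparisons, and 1 higher for BMP4 with FGF8 over 96 h. The shares of all genes were 9.69%, 9.97%, 5.4%, 3.31% and 12.5%. Highest in BMP4 11 h were 68 of 72 and lowest in BMP4 with FGF4 45 and in 96 h untreated 27 of 72, while 2 genes were below the 96 h library and 1 below the BMP4 5 h library. Leaving out genes with a pseudogene entry left 0 lower for BMP4 5 h over 96 h. No alternative changed the sign of the ribosomal protein genes' median in the 9 comparisons, while total counts turned the median of all genes to 0.111 for BMP4 with FGF4 over BMP4 11 h and to 0.028 for BMP4 with FGF4 over 96 h.

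Leaving out each library in turn from the 11 h against 5 h fit gave 0 to 62 of the 72 genes higher (0.212% to 21.1% of all genes) and 0 to 27 lower (0% to 24.3%), and without BMP4 11 h their median turned to -0.157, against 0.090 with all 4 libraries. The count over all genes was 320 higher and 42 lower with edgeR, 1354 and 645 with DESeq2, 717 and 267 with a term for added FGF, 113 and 20 with total-count scaling, and 501 and 82 of 16562 with no filter. No paired analysis was possible because each condition has 1 library, and the single replicate number pairs nothing.

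The share of counts moved with its denominator and the genes placed. Of the whole column it was 1.05% (BMP4 with FGF4), 1.30% (BMP4 11 h), 1.15% (BMP4 with FGF8), 1.12% (BMP4 5 h), 1.11% (96 h) and 1.15% (0 h). In the same order of libraries it was 1.17, 1.45, 1.27, 1.24, 1.23 and 1.28% when placed by the 96 h column only, 1.16, 1.43, 1.26, 1.23, 1.22 and 1.26% by the 0 h column only, and 1.08, 1.33, 1.18, 1.15, 1.13 and 1.18% without genes that have a pseudogene entry. Without mitochondrial, globin and ribosomal RNA names it was 1.14% (BMP4 with FGF4), 1.40% (BMP4 11 h) and 1.20% (96 h). BMP4 11 h had the highest and BMP4 with FGF4 the lowest share under each of these.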
